A study of Homo sapiens with 40 samples.

Results

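The genes described here are 9 components of the machinery with which a cell detects nucleic acids in the wrong place and keeps its own RNA from being detected: the sensors TLR3, DHX58, CGAS and EIF2AK2, the adaptors MAVS and STING1, the kinase TBK1, the transcription factor IRF3 and the RNA editor ADAR. They were found in the table by name, current or former (CGAS was MB21D1 and STING1 was TMEM173), and no measured value entered the rule, although earlier results of these data were known when they were chosen. Of 62486 gene IDs in the count table, 9 are these genes, and all 9 passed the filter on low counts that left 17767 genes to test. The study compared A549 cells labelled control (CT) with A549 cells labelled SETDB1 knockout (KO), in which SETDB1 was disrupted with CRISPR/Cas9. A549 is an established human lung adenocarcinoma line, and SETDB1 is a methyltransferase that places H3K9me3, a mark of silenced chromatin and of silenced retroelements. RNA-seq had 3 libraries per genotype, out of 40 samples in the series. The labels do not say whether the KO cells are a clone or a pool, what the control cells had received, or whether the libraries came from separate cultures, so p-values measure the spread between these libraries only.

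Double-stranded RNA is read by TLR3 in endosomes and by the RIG-I-like receptors in the cytosol, which signal through the mitochondrial adaptor MAVS. Cytosolic DNA is read by cGAS, whose product cGAMP activates the adaptor STING. Both routes converge on the kinase TBK1, which phosphorylates IRF3 and so turns on interferon genes. EIF2AK2 encodes PKR, which stops translation when it binds double-stranded RNA, and ADAR converts adenosine to inosine in such RNA, which keeps self RNA from being sensed. Transcripts of endogenous retroelements, which SETDB1 helps to silence, are known ligands of these sensors.

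The sensor genes TLR3 and DHX58 rose by more than 3-fold in KO cells and were the only members that changed by 2-fold or more. MAVS, TBK1 and IRF3 rose by 1.16-fold to 1.21-fold, EIF2AK2 fell to 0.916 of its control level, and CGAS, STING1 and ADAR did not pass the test. In all, 6 of 9 members (66.7%) had an adjusted p under 0.05 in edgeR's quasi-likelihood test, 5 higher and 1 lower, beside 62.8% of all genes tested (32.8% higher and 30.0% lower), so the share is near the background. Changes reached 2-fold in 2 of 9 members (22.2%), both higher, beside 14.7% of all genes (9.86% higher and 4.85% lower). Of these 2, DHX58 passed the filter on low counts only through its KO libraries. The genotypes did not overlap in 7 of 9 members, beside 65.8% of all genes. The median log2 fold change was 0.24 over the members and 0.0038 over all genes. Under upper quartile scaling the members split into 5 higher and 2 lower, and under library size only into 6 higher and 1 lower.

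Promoter windows were at hand for 5 of the 9 genes, in 7 windows running from 250 bases before to 50 bases after a start site (RefSeq, GRCh38.p14). They were searched on both strands for the interferon response element core (GAAA, any 2 bases, GAAA), for the STAT-binding pattern TTCNNNGAA, which is its own reverse complement, and for an NF-kappaB pattern (GGG, any 2 bases, TTTCC). The response element core was found in the windows of TLR3 and EIF2AK2, across the start site in each, so these stretches are shown together, with the match in capitals. In TLR3 it lies on the reverse strand. The stretches run from 100 bases before the start site to the end of the match.
TLR3, chr4:186069056-186069161, plus strand: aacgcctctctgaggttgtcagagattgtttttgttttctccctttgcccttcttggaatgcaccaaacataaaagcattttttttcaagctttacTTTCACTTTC
EIF2AK2, chr2:37156977-37157080, minus strand: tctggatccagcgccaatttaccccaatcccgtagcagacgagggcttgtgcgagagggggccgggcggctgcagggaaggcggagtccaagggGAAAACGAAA

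The match begins 4 bases before the start site in TLR3 (position -4) and 6 bases before it in EIF2AK2 (position -6). TLR3 also held the STAT-binding pattern at positions -178 and -50, neither of which overlaps the core. The windows of MAVS, TBK1 and ADAR (3 windows for ADAR) held none of the 3 patterns. Of all 35116 windows of this length, 3.57% held the response element core, 7.66% the STAT-binding pattern and 1.91% the NF-kappaB pattern. Over the 453 tested genes with the core, 40.2% were higher and 30.0% lower in KO, beside 35.6% and 31.8% of the 11814 tested genes with a window, and the medians of the log2 fold change were 0.047 and 0.018.

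The labelled knockout was examined first. SETDB1 stood at 37.4, 39.5 and 38.7 CPM in control and 23.4, 21.2 and 21.0 CPM in KO libraries, where CPM is the count scaled to the size of the library, with the TMM correction for composition. The KO level was 0.566 of control (log2 fold change -0.82, SE 0.060, edgeR adjusted p 1.7e-12). Libraries held 18065062 to 48364919 counts, with KO replicate 2 the deepest, and mitochondrial genes took 21.0% to 24.0% of them. Of 12 lung epithelial markers, 7 were tested and all 7 were higher in KO, beside 32.8% of all genes tested. The 12 together summed to 4454 to 4875 CPM in control and 10804 to 11606 CPM in KO. Most of these sums came from KRT7, KRT8 and KRT18, so they do not describe the other markers. KRT19 had the largest log2 fold change of the 7 (2.49) and KRT7 the smallest (0.10, edgeR adjusted p 0.039). KRT8 had the highest level (2266 ± 139 and 6583 ± 261 CPM), while NKX2-1 had 0 counts in control and 5 in KO and SFTPA1 had 0 counts in all libraries. The other untested markers had few counts: SFTPB 27 in control and 20 in KO, SFTPC 6 and 10, and SFTPD 8 and 21. The 12 blood cell markers together summed to 4.83 to 6.45 CPM in control and 2.66 to 3.51 CPM in KO, and 2 of them were tested: ITGAM fell by 1.47 on the log2 scale and CSF1R did not pass the test (edgeR adjusted p 3.8e-09 and 0.27). CD3E and MS4A1 had 0 counts, PTPRC had 2 counts in control and 0 in KO, and LYZ had 5 and 38. Of 10 fibroblast and endothelial markers 9 had a row, with a summed level of 5.12 to 5.14 CPM in control and 8.85 to 10.5 CPM in KO, and 4 were tested. CDH5 rose from 0.288 ± 0.0833 to 4.52 ± 0.669 CPM, COL3A1 and COL1A1 rose by 1.42 and 0.30 on the log2 scale, and PDGFRA fell from 1.30 ± 0.116 to 0.128 ± 0.0378 CPM, while COL1A2 and DCN had 0 counts. CDH5 and COL3A1 passed the filter on low counts only through their KO libraries, and PDGFRA only through its control libraries. The part of these marker levels in the results below was not tested. In bulk RNA, fewer cells with a transcript and less of it per cell cannot be told apart.

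TLR3 (ENSG00000164342, chromosome 4), the endosomal receptor for double-stranded RNA, was measured at 1.74, 1.27 and 1.34 CPM in control and at 5.23, 5.14 and 4.76 CPM in KO libraries. The lowest KO library was well above the highest control library. These values rest on 103 control and 481 KO counts. The mean went from 1.45 ± 0.254 to 5.04 ± 0.250 CPM (SD, n = 3 each), a fold change of 3.48 with a 95% interval of 2.82 to 4.30 (log2 fold change 1.80, SE 0.15, edgeR adjusted p 2.4e-11). Of all genes tested, 94.7% had a lower log2 fold change. TLR3 is the only one of the nucleic acid-sensing Toll-like receptors with more than a few reads here: TLR7 and TLR8 had 0 counts in all libraries, and TLR9 had 2 counts in each genotype.

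DHX58 (ENSG00000108771, chromosome 17) encodes LGP2, the RIG-I-like receptor without signalling domains, which modulates its relatives RIG-I and MDA5. It was measured at 0.297, 0.496 and 0.309 CPM in control and at 1.31, 1.24 and 1.02 CPM in KO libraries, and the groups did not overlap. Only 25 control counts and 114 KO counts lie behind these values, and the control libraries varied by 30.4% of their mean. The filter on low counts was met only with the KO libraries, so DHX58 could be tested only because it was high there. The fold change was 3.37 with a 95% interval of 2.24 to 5.06 (log2 fold change 1.75, SE 0.29, edgeR adjusted p 5.8e-06). Leaving out each library in turn gave log2 fold changes from 1.63 to 1.97. The signalling members of the same family also rose, and by less: RIGI was at 11.9 to 14.3 CPM in control and 17.3 to 18.6 CPM in KO libraries (log2 fold change 0.46, SE 0.077), and IFIH1, which encodes MDA5, went from 2.62 ± 0.345 to 6.43 ± 0.207 CPM (log2 fold change 1.27, SE 0.12; edgeR adjusted p 8.1e-06 and 6.0e-10). Whether these increases differ from that of DHX58 was not tested.

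CGAS (ENSG00000164430, chromosome 6), the enzyme that makes cGAMP on binding DNA, was measured at 21.3, 19.6 and 21.7 CPM in control and at 19.9, 19.0 and 18.5 CPM in KO libraries. The highest KO library lay above the lowest control library. The KO level was 0.914 of control, with an interval of 0.832 to 1.00 (log2 fold change -0.13, SE 0.066, edgeR adjusted p 0.091). It passed the threshold under upper quartile scaling (adjusted p 0.032, and 0.032 to 0.41 over all alternatives), and its direction was downward in each of them.

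EIF2AK2 (ENSG00000055332, chromosome 2), the gene of PKR, was measured at 131, 128 and 127 CPM in control and at 120, 116 and 118 CPM in KO libraries. The groups did not overlap, and each varied by under 2% of its mean (1.66% and 1.89%). The mean went from 129 ± 2.14 to 118 ± 2.22 CPM (SD, n = 3 each), which is 0.916 of control with an interval of 0.863 to 0.973 (log2 fold change -0.13, SE 0.042, edgeR adjusted p 0.012). The call was lost without the filter on low counts (log2 fold change -0.09, adjusted p 0.17) and without KO replicate 2 (-0.11, adjusted p 0.059). In RefSeq the gene overlaps GPATCH11, which fell further, from 26.5 ± 0.593 to 16.7 ± 0.896 CPM. Whether counting used strand is not stated, so reads of such a pair cannot be told apart.

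**Figure D1:**
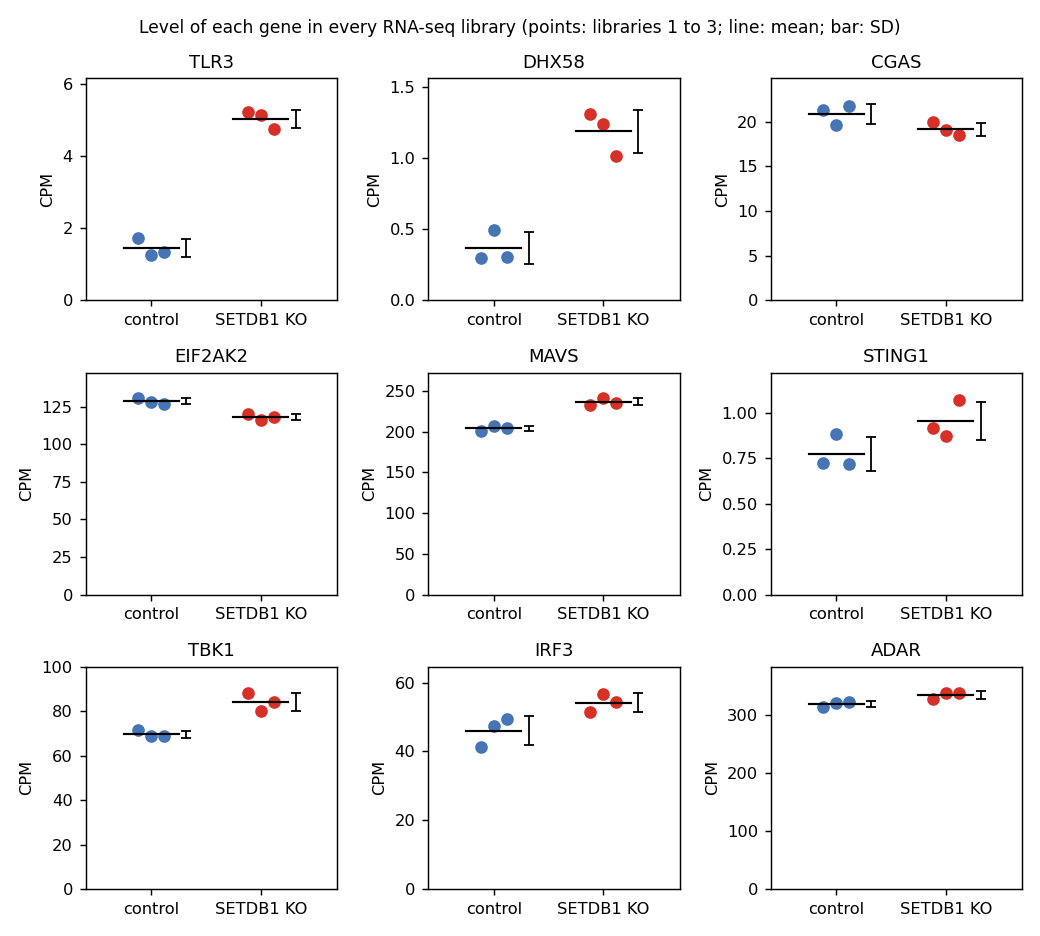
Level of each of the 9 genes in CPM (TMM-scaled counts, linear axes from 0, a scale per panel) in 3 control (blue) and 3 SETDB1 KO (red) RNA-seq libraries; points are libraries, lines are means and bars are SD. KO libraries lie apart from control libraries for TLR3 (4.76 to 5.23 against 1.27 to 1.74) and DHX58, and overlap them for CGAS and STING1.

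MAVS (ENSG00000088888, chromosome 20), the mitochondrial adaptor of the RIG-I-like receptors, was measured at 201, 207 and 204 CPM in control and at 233, 241 and 235 CPM in KO libraries. All KO libraries were above all control libraries. The fold change was 1.16 with an interval of 1.09 to 1.23 (log2 fold change 0.21, SE 0.040, edgeR adjusted p 4.7e-05), and the adjusted p stayed between 2.8e-07 and 6.0e-04 over the alternatives.

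STING1 (ENSG00000184584, chromosome 5), the adaptor of the DNA route, was read so rarely that a change was hard to see. Its counts were 17, 16 and 21 in control and 21, 43 and 24 in KO libraries, or 0.721, 0.882 and 0.720 CPM against 0.915, 0.871 and 1.07 CPM. The groups overlapped, since control replicate 2 lay above KO replicate 2. The fold change was 1.22, and its interval of 0.860 to 1.73 spans a decrease as well as an increase (log2 fold change 0.29, SE 0.25, edgeR adjusted p 0.32). An increase of the size seen in TLR3 or DHX58 lies outside that interval.

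TBK1 (ENSG00000183735, chromosome 12), the kinase on which the routes converge, was measured at 71.6, 68.8 and 68.7 CPM in control and at 88.3, 80.1 and 84.3 CPM in KO libraries, without overlap. The fold change was 1.21 with an interval of 1.13 to 1.29 (log2 fold change 0.27, SE 0.048, edgeR adjusted p 2.3e-05). IRF3 (ENSG00000126456, chromosome 19), its substrate, was measured at 41.4, 47.4 and 49.4 CPM in control and at 51.4, 56.8 and 54.4 CPM in KO libraries. The groups did not overlap, but control replicate 3 came close to KO replicate 1, and control replicate 1 stood below the other controls. The fold change was 1.18 with an interval of 1.08 to 1.28 (log2 fold change 0.24, SE 0.060, edgeR adjusted p 0.0012), and leaving out each library gave log2 fold changes from 0.17 (without control replicate 1) to 0.30. RefSeq places BCL2L12 over part of IRF3, and BCL2L12 went the other way, from 8.10 ± 0.437 to 6.19 ± 0.186 CPM.

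ADAR (ENSG00000160710, chromosome 1) was measured at 314, 321 and 323 CPM in control and at 327, 338 and 338 CPM in KO libraries. The groups did not overlap, but the step was small. The fold change was 1.05 with an interval of 0.989 to 1.11 (log2 fold change 0.065, SE 0.039, edgeR adjusted p 0.16). It passed the threshold when libraries were scaled by size only (log2 fold change 0.093, adjusted p 0.037), and over all alternatives its adjusted p was 0.037 to 0.52. The counts are per gene, so the constitutive and the interferon-inducible forms of the enzyme, which start at different promoters, were not measured apart.

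The small changes were next set beside those of the genes around them, because whole chromosomes were shifted in these libraries. The median log2 fold change was -0.54 on chromosome 2 (1049 tested genes), 0.37 on chromosome 12 (854) and 0.34 on chromosome 19 (1137). EIF2AK2 on chromosome 2 was thus higher than its surroundings: its -0.13 compares with -0.41 over the 50 tested genes nearest to it (25 on either side), of which 34 were lower and 8 higher. TBK1 on chromosome 12, at 0.27, was below the median of 0.38 of its 50 neighbours, of which 32 were higher. IRF3 on chromosome 19, at 0.24, was close to the 0.26 of its neighbours, of which 27 were higher. Relative to the neighbour median, the sign of the change turned for EIF2AK2 (0.28), TBK1 (-0.11) and IRF3 (-0.021). The part of these regional shifts in the changes of the 3 genes was not tested. TLR3 (1.77), DHX58 (1.65) and MAVS (0.17) kept their direction relative to their neighbours. The tested genes directly beside TLR3 rose too, FAM149A by 1.80 and SORBS2 by 1.24 on the log2 scale (edgeR adjusted p 6.7e-14 and 9.1e-04).

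**Figure D2:**
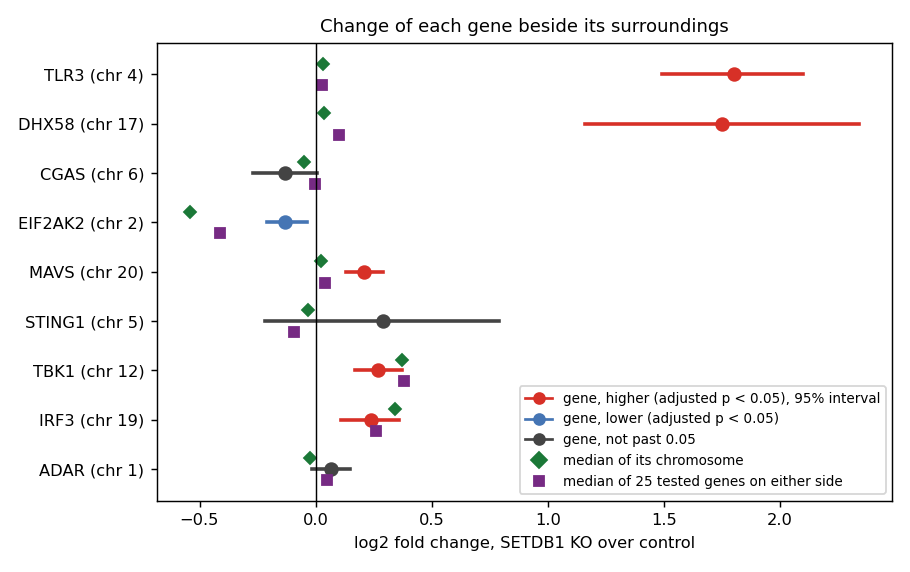
Log2 fold change of each gene, KO over control (circles, with 95% intervals), beside the median of its chromosome (diamonds) and of 25 tested genes on either side (squares; 33 genes in all for TLR3, near a chromosome end). TLR3 and DHX58 stand far from the medians of their surroundings, which for TLR3 include the adjacent FAM149A (1.80) and SORBS2 (1.24), EIF2AK2 lies above chromosome 2 (-0.13 against -0.54), and TBK1 and IRF3 lie within 0.11 of theirs.

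By the root mean square difference of centred log2 CPM over the 6 libraries, the tested genes nearest to TLR3 were SMPDL3B (0.083), PCDHGB3 (0.086) and SDR16C5 (0.087), among 14465 genes compared. SMPDL3B went from 1.15 ± 0.142 to 3.70 ± 0.250 CPM. Nearest to EIF2AK2 were GTF2F2 (0.0047), SPAG9 (0.0067) and HLTF (0.011). Their log2 fold changes were -0.13, -0.12 and -0.13, and GTF2F2 did not pass the test (edgeR adjusted p 0.052). Genes were chosen here by their likeness to TLR3 or EIF2AK2, so their similar changes follow from the choice and are no further result.

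The remaining genes of these pathways were taken from 8 lists of 165 genes, of which 135 were tested. In edgeR's test 53 were higher and 35 lower in KO (65.2% called), near the 62.8% of all genes, and the median log2 fold change was 0.076. At least 2-fold, 10 of the 135 were higher and 3 lower. As shares of the 135, both are below the 9.86% and 4.85% of all genes. Among the 10, IFI16, TLR4, OAS2 and CXCL11 passed the filter on low counts only through their KO libraries. The chromosomes differed here too: of 9 tested genes on chromosome 2, 7 were lower and 1 was higher, of 17 on chromosomes 12 and 19, 13 were higher and 1 was lower, and of the other 109, 39 were higher and 27 lower. Its part in the counts below was not tested. Those counts stand beside 32.8% higher and 30.0% lower over all genes tested. Between 53.8% and 77.3% of the tested genes of a list were called, and 100% in the list of IRF3 outputs, beside 62.8% of all genes.

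Among other nucleic acid sensors and their cofactors, 5 of 22 tested genes were higher and 12 lower (median -0.12). IFI16, a nuclear and cytosolic DNA sensor that feeds STING, was at 0.127 to 0.274 CPM in control and 3.54 to 5.14 CPM in KO libraries (log2 fold change 4.42, SE 0.28, edgeR adjusted p 1.8e-13), with 14 control counts in all. It passed the filter on low counts only through its KO libraries. IFIH1, given above, was the other large increase, although it lies on chromosome 2. The largest decreases were those of XRCC5 (log2 fold change -0.83, chromosome 2), which encodes the DNA end-binding protein Ku80, and of the RNA helicase gene DDX21 (-0.64; edgeR adjusted p 2.8e-16 and 5.0e-13). The inflammasome sensor AIM2 had 0 counts in all libraries, and ZBP1, which reads Z-form nucleic acid, had 0 counts in control and 4 in KO.

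In the list for the endosomal Toll-like receptor arm, 7 of 13 tested genes were higher and 1 was lower (median 0.35). The list also holds the surface receptors TLR2 and TLR4 and the co-receptor gene CD14, and TLR4 is among the genes that were higher. Under library size only the split was 7 and 0. TICAM1, which encodes the TLR3 adaptor TRIF, was higher in KO at 3.83 ± 0.304 against 2.89 ± 0.650 CPM, and UNC93B1, the chaperone that carries TLR3 to endosomes, at 105 ± 5.90 against 63.1 ± 8.74 CPM (edgeR adjusted p 0.0066 and 7.3e-05). The libraries of the genotypes overlapped for TICAM1. TICAM1 lies on chromosome 19, whose median log2 fold change was 0.34, beside 0.47 (SE 0.14) for TICAM1. The part of the chromosome in its increase was not tested. TICAM1 and UNC93B1 were singled out for their link to TLR3 after their values were seen. TLR4, the receptor for bacterial lipopolysaccharide, rose from 0.178 ± 0.0574 to 2.21 ± 0.470 CPM (log2 fold change 3.57, SE 0.30), and the kinase gene IRAK4 on chromosome 12 by 0.79 (SE 0.068; edgeR adjusted p 4.7e-11 and 7.2e-11). TLR4 passed the filter on low counts only through its KO libraries. IRAK1 fell by 0.21 (SE 0.061, adjusted p 0.009), a call lost under library size only (adjusted p 0.068).

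Of 37 partners of STING and MAVS signalling, 16 were higher and 6 lower (median 0.10). IRF7, the interferon-inducible relative of IRF3, rose from 4.06 ± 0.535 to 8.54 ± 0.569 CPM (log2 fold change 1.08, SE 0.11, edgeR adjusted p 1.8e-09). The TBK1 scaffold gene TBKBP1 rose by 0.83 (SE 0.10), while TANK, another TBK1 scaffold, fell by 0.35 (SE 0.053) with much of chromosome 2 (edgeR adjusted p 6.0e-08 and 1.4e-06). TNFAIP3, which encodes the inhibitor A20, fell from 3.69 ± 0.448 to 2.36 ± 0.425 CPM (adjusted p 6.1e-04). IKBKE, the kinase closest to TBK1, was 14.4 ± 1.03 and 15.1 ± 0.938 CPM (adjusted p 0.33).

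Nucleases and enzymes of cGAMP and nucleotide metabolism were divided, with 5 of 18 tested genes higher and 6 lower (median 0.011). ENPP1, the extracellular enzyme that degrades cGAMP, fell from 12.9 ± 0.508 to 6.33 ± 0.736 CPM (log2 fold change -1.03, SE 0.091, edgeR adjusted p 1.2e-10). Subunits of the LRRC8 channels, which carry cGAMP between cells, went apart: LRRC8A rose from 70.0 ± 0.932 to 129 ± 3.98 CPM and LRRC8C, at 26.1 to 28.3 CPM in control, fell to 13.5 to 15.6 CPM (edgeR adjusted p 6.1e-16 and 3.6e-12). RNASET2, a lysosomal ribonuclease, rose by 0.70 (SE 0.16, adjusted p 5.1e-04). The DNA exonuclease gene TREX1 was listed at 0 in all libraries, but it lies within ATRIP in RefSeq and how shared reads were counted is not stated, so this 0 does not show that it was not expressed.

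Of 19 genes around PKR, the oligoadenylate synthetases and double-stranded RNA-binding proteins, 8 were higher and 4 lower (median 0.056), and upper quartile scaling gave 7 and 7. OAS2, among the 8, had 2, 0 and 3 counts in control and 10, 28 and 10 in KO libraries. The filter on low counts was met only through its KO libraries, so its place in this count depends on its KO level. OAS1, which makes the activator of RNase L on binding double-stranded RNA, rose from 19.0 ± 1.05 to 48.3 ± 0.724 CPM (log2 fold change 1.35, SE 0.059, edgeR adjusted p 2.1e-17), and OAS3 rose by 0.45 (SE 0.045, adjusted p 1.1e-09). Both lie on chromosome 12. PRKRA, the PKR activator PACT on chromosome 2, fell by 0.52 (SE 0.065), and EIF2S1, which encodes the PKR substrate eIF2-alpha, fell by 0.37 (SE 0.042; edgeR adjusted p 7.2e-08 and 1.6e-08). In RefSeq PRKRA overlaps CHROMR (log2 fold change -1.14) and EIF2S1 overlaps GPHN (0.21), with which reads could be shared. The other eIF2 kinase genes EIF2AK1, EIF2AK3 and EIF2AK4 did not pass the test, with log2 fold changes of 0.056, -0.13 and -0.088 and adjusted p of 0.28, 0.075 and 0.1.

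Of 20 genes of the RNA and DNA deaminase families and their cofactors only 8 had enough counts to test, and 3 were higher and 3 lower (median 0.064). ADARB1, the other catalytically active ADAR-family editor, was 3.55 ± 0.249 CPM in control and 3.60 ± 0.917 CPM in KO (log2 fold change -0.022, SE 0.15, edgeR adjusted p 0.91), while ADARB2 and ADAD1 had 0 counts. The partners of the tRNA adenosine deaminase moved in opposite directions: ADAT2 fell from 8.46 ± 0.646 to 4.22 ± 0.515 CPM (log2 fold change -1.01, adjusted p 4.1e-09), and ADAT3 rose from 0.962 ± 0.459 to 3.35 ± 0.418 CPM (1.80, adjusted p 4.3e-07). ADAT3 lies within SCAMP4 in RefSeq, which rose from 32.7 ± 2.33 to 44.4 ± 1.60 CPM and could share its reads. RBM47, an RNA-binding cofactor of cytidine editing, rose by 0.31 (SE 0.043, adjusted p 4.7e-07). APOBEC3B fell by 0.65 (SE 0.25, adjusted p 0.024), and its call was lost without control replicate 2 (adjusted p 0.099), without KO replicate 3 (0.11) and in DESeq2 (0.06).

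At the end of the pathway, the 4 interferon genes examined had almost no reads. IFNB1 had 1 count in each genotype, and IFNL1, IFNL2 and IFNL3 had 0 counts in all 6 libraries, which allows levels of up to 0.0608 to 0.165 CPM (3 counts in a library; counting error only). Of 12 listed outputs and interferons, 5 were tested, and all 5 were higher (median 1.21), beside 32.8% of all genes: CXCL11, IFIT2, IFIT3, ISG15 and IFIT1. CXCL11 passed the filter on low counts only through its KO libraries, so its place in this count depends on its KO level. CXCL10, CCL5 and RSAD2 were too low to be tested, with 0, 5 and 2 counts in control and 11, 8 and 10 in KO. Naming all 5 was decided after their values were seen. CXCL11, an interferon-inducible chemokine, had 1 count in control and 265 in KO, a ratio of 198 with a counting interval of 35.3 to 7857. IFIT2, which encodes an RNA-binding antiviral protein, rose from 2.27 ± 0.473 to 6.65 ± 0.227 CPM (log2 fold change 1.50, SE 0.13, edgeR adjusted p 8.5e-11), and IFIT3 from 4.15 ± 0.336 to 9.69 ± 0.876 CPM. In RefSeq IFIT2 overlaps the more abundant LIPA (84.3 ± 5.65 CPM in control and 90.9 ± 3.03 CPM in KO), with which reads could be shared. IFIT1 and ISG15 were near the threshold (adjusted p 0.041 and 0.042), and the number of genes called in the list was 3 under upper quartile scaling, DESeq2 and limma voom, and without control replicate 2, KO replicate 1 or KO replicate 2.

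Of 13 tested interferon receptor and JAK-STAT genes, 4 were higher and 3 lower (median 0.15), and upper quartile scaling gave 3 and 4. STAT2, on chromosome 12, rose from 37.2 ± 0.869 to 70.6 ± 1.23 CPM (log2 fold change 0.93, SE 0.050, edgeR adjusted p 2.3e-15). SOCS3, a feedback inhibitor of JAK signalling, fell from 24.7 ± 1.51 to 9.35 ± 0.559 CPM (-1.40, adjusted p 1.7e-15), and JAK1 fell by 0.29 (SE 0.039). IFNAR1, a subunit of the type I interferon receptor, rose by 0.25 (SE 0.063; edgeR adjusted p 2.6e-07 for JAK1 and 0.001 for IFNAR1).

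**Figure D3:**
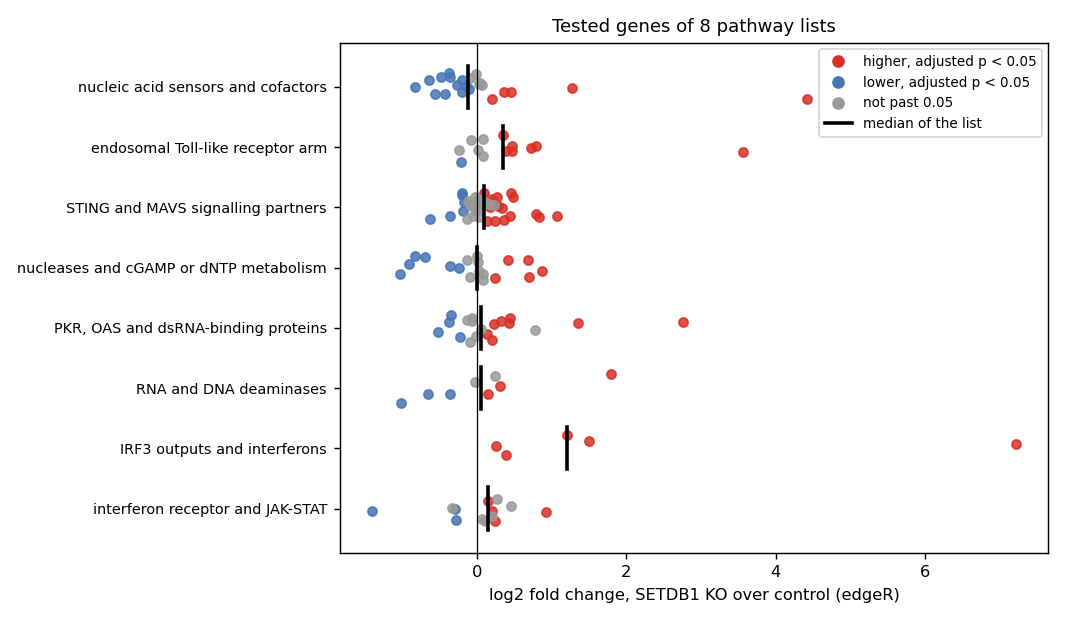
Log2 fold change (edgeR, KO over control) of each tested gene in 8 pathway lists; red points are higher and blue points lower at an adjusted p under 0.05, grey points did not pass, and black bars are list medians. The medians lie between -0.12 and 1.21, with IFI16 (4.42), TLR4 (3.57) and CXCL11, whose fitted value rests on 1 control count, far to the right. Among the genes called higher, IFI16, TLR4, CXCL11 and OAS2 (2.76) passed the filter on low counts only through their KO libraries.

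Across the alternatives, the direction of each member held in all 15 refits in which it had a value, the comparison with surrounding genes aside, and the calls that changed were those of CGAS, EIF2AK2 and ADAR, as the plot of each gene under every setting shows.

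**Figure D4:**
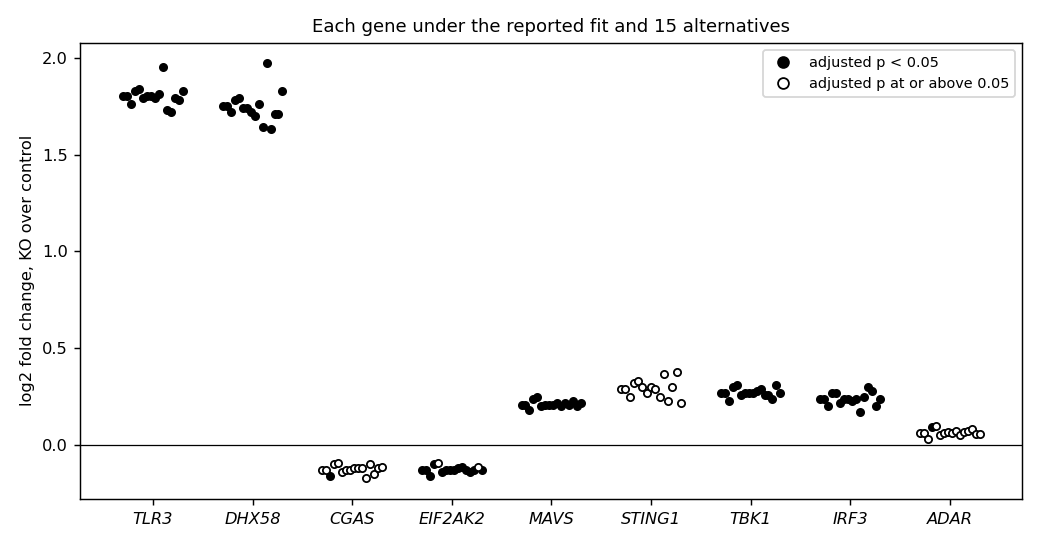
Log2 fold change of each gene under the reported fit and 15 alternatives of scaling, filter, test, block or left-out library (points; filled where the adjusted p was under 0.05, open where not). TLR3 stayed between 1.72 and 1.95 and DHX58 between 1.63 and 1.97, while filled and open points mix for CGAS, EIF2AK2 and ADAR.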

How the data were processed

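The authors deposited whole-number counts per gene, 1 column per RNA-seq library, made, per the labels' protocols, with a TruSeq kit that keeps strand. STAR 2.6.1c, edgeR 3.30.0 and the build hg19 are named in the submitters' processing notes, with no role given; the counter, its strand setting and its treatment of shared reads are not given in the sources used here. Of 62486 gene IDs, 93.8% matched a symbol. The 9 members and the 8 pathway lists were chosen with earlier results of these data known.

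Counts were tested in R 4.3.3 with edgeR 4.0.16 (filterByExpr, TMM, robust quasi-likelihood F-test, genotype only) over all 17767 genes kept, with Benjamini-Hochberg adjustment over all of them at 0.05. CPM used TMM-scaled library sizes, intervals are 95%, and exon lengths were not at hand, so levels were not compared between genes. From each list up to 2 genes higher and 2 lower were named, the largest changes with a mean CPM of at least 1. Gene order, chromosomes and promoters came from RefSeq tables on GRCh38.p14, and positions of that build were not set against the hg19 peak, TAD and compartment files, which were not used here. A planned search of protein sequences was not run. In a simulation of counts for 17339 genes, 200 genes were given a change. Every gene was given the same assumed spread between libraries, which was not estimated from the measured libraries. The test found 88.2% of the tested genes with a 2-fold change (log2 size 1) and 100% of those with a 4-fold change (log2 size 2). False positives made up 5.26% of its calls. Changes under 2-fold, the size seen in most members, were not simulated. In the measured libraries 62.8% of genes were called, far more than were changed in the simulation. These rates therefore do not give the recovery or the false calls in the measured data. Libraries of a genotype differed by more than sampling noise, so none was merged. Replicate numbers paired the libraries only weakly, and the reported test used genotype only. Alternatives were other scalings and filters, DESeq2 1.42.0, limma 3.58.1 (voom), a replicate block and leaving out each library; 0 per-sample columns went unmapped.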

Additional observations from a re-analysis of the deposited data

How the results depend on the processing

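The number of members called was 5 to 7 over 15 alternatives and the number changed at least 2-fold was 2 in each. Upper quartile scaling added CGAS (log2 fold change -0.16), library size only added ADAR, and EIF2AK2 was lost without the filter on low counts and without KO replicate 2; the cause was not tested. STING1 had no value under the filter of 1 CPM. Relative to the median of the chromosome and of the neighbouring genes, the sign turned for EIF2AK2 (0.41 and 0.28), TBK1 (-0.10 and -0.11) and IRF3 (-0.10 and -0.021). Among values of named pathway genes under these alternatives, 431 kept direction and call and 4 lost the call (IRAK1 in 1, APOBEC3B in 3). Pathway genes called numbered 80 to 95. Without the filter, 4020 of all genes changed at least 2-fold, among more genes tested. Scaling moved the median of all genes by -0.035 (upper quartile) and 0.031 (library size only). Same-numbered libraries deviated together only weakly (correlations 0.11, 0.064 and 0.047; control replicate 3 reached 0.048 with KO replicate 2), and the replicate block called 6 members, 2 of them at least 2-fold, 95 pathway genes and, for all genes changed between genotypes, 11655. With 16 to 21 control counts a library for STING1 and 7 to 9 for DHX58, depth limits these genes most.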

Other observations

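The genes beside TLR3 were examined after its increase was seen. FAM149A, the next tested gene on one side of it in RefSeq order, rose from 3.25 ± 0.595 to 11.5 ± 0.861 CPM (log2 fold change 1.80, edgeR adjusted p 6.7e-14), and SORBS2, on the other side, from 0.418 ± 0.0673 to 0.972 ± 0.318 CPM (1.24, adjusted p 9.1e-04). SORBS2 passed the filter on low counts only through its KO libraries. Over the 33 tested genes around TLR3, 8 were higher and 8 lower, with a median of 0.029. Beside DHX58, KAT2A rose by 0.17 (adjusted p 0.0064) and C17orf113 by 0.63 (adjusted p 0.0022), against 1.75 for DHX58. Beside EIF2AK2, GPATCH11 changed by -0.68 and CEBPZOS by -0.23 (adjusted p 4.6e-10 and 0.0028).

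TLR2, a surface receptor for bacterial lipoproteins that was too low to be tested, had 1 count over the control libraries and 10, 12 and 14 counts in the KO libraries.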
